A study of Mus musculus with 15 samples.

Results

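The hippocampal subfield markers are 37 genes, each taken here as a marker of 1 subfield. Of them, 18 stand for the dentate gyrus, 13 for CA1 and 6 for CA2 or CA3. Whether these genes are confined to that subfield cannot be read from bulk tissue and was not tested. They were listed by name, with earlier results of these data known, and no measured value chose the genes. Measured intensity did choose the probe, since each gene was read on its brightest probe by mean over the 15 arrays. Of the 37, 34 were found by gene name among the 26117 genes tested: 17 dentate, 12 CA1 and 5 CA2/CA3 markers. All 34 were well above background on all 15 arrays. Rasl10a, Spink8 and Iyd stand on the array under older RIKEN clone names and were found through their RefSeq accessions. They are described beside the others and left out of the counts.

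Hippocampal RNA of male mice, strain C57BL/6J, was hybridised to 15 single-colour arrays, 5 per group, which the submitters call biological replicates. The E1 mice had been shocked in a conditioning context and were sampled 1 h after extinction trial 1, a return to that context with no shock, at which freezing was high. The ELF mice had been shocked likewise, returned to the context every 24 h, and were sampled 1 h after trial 5, the trial at which freezing had declined. The design text describes the controls as placed in the context with no shock, while their sample labels call them naive. No time of sampling is given for the controls. No genotype was altered in any group, and no age is given. The p-values set each difference against the spread between arrays within groups. Whether 1 array is 1 mouse is not stated, so that spread may not be the spread between mice. The question the design poses is how the hippocampal transcriptome differs early and late in the extinction of contextual fear.

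The hippocampus is a chain of subfields. Granule cells of the dentate gyrus receive input from the entorhinal cortex and send mossy fibres to CA3 pyramidal cells, whose Schaffer collaterals drive CA1, and CA2 lies between CA3 and CA1. Each subfield's neurons carry a stable set of transcripts, so the level of a marker in dissected tissue depends both on how much of that subfield the sample holds and on the gene's expression in its cells. In bulk tissue, fewer cells of a type and less RNA per cell cannot be told apart.

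Each gene was read on its brightest 60-base probe. A value is the log2 intensity of that probe minus the log2 of the array's 75th percentile, so 1 unit is a doubling, and values of different genes are not compared. The results turn most on Map3k15, Rfx3, Rasl10a and Tdo2, and for Rfx3 and Tdo2 the probes of 1 gene gave different values. The first 30 of the 60 bases of these probes are shown in the order in which the files list them, in lower case, since no part is singled out. The positions are those the files give, on the mm7 build.
Map3k15, its single probe, chrX:154896823-154896953, plus strand: agattgttgaagaggactatacactttctg
Rasl10a, its single probe, chr11:5012167-5012226, plus strand: ggacaggtcagttttacctgagaccttatt
Rfx3, brightest probe, chr19:27505481-27505540, minus strand: tggcactatgttacacctacattcaatgag
Rfx3, second probe, chr19:27526114-27526173: aactccaaataccattactatgggattcgt
Rfx3, dimmest probe, chr19:27468396-27468455: cttactctaaccccattgatactgggctta
Tdo2, brighter probe, chr3:82073120-82074397, minus strand: tttggacttcaatgacttcagagaatacct
Tdo2, dimmer probe, chr3:82068883-82071893: agaagaatttctaaggattcaggctaaaac
The brightest Rfx3 probe lies between the other 2 and was designed on a cDNA clone rather than on the RefSeq transcript. The Map3k15 and both Tdo2 probes cover spans longer than their own 60 bases. Exon and UTR annotation on this build was not used here.

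The arrays fell on 4 slides that are only partly separate from the groups. Slide 1 held controls 1 to 4. Slide 2 held control 5 and E1 1 to 3, slide 3 held E1 4 and 5 with ELF 3 and 4, and slide 4 held ELF 1, 2 and 5. No slide held both control and ELF arrays. The share of spots well above background ran from 83.5% (ELF 4) to 97.2% (ELF 5), and the 75th percentile intensity from 1441 to 2932. Pairs of arrays within a group correlated at 0.986 to 0.996 among controls and E1 arrays and at 0.951 to 0.997 among ELF arrays.
General neuronal markers, which are not particular to the hippocampus, were present. Camk2a read 4.84 ± 0.19 (SD, n = 5), Slc17a7 1.88 ± 0.16 and Snap25 5.09 ± 0.20 in controls, and 7 of 8 such markers were measured. Their summed level, in units of the array's 75th percentile, was 136 to 169 in controls, 132 to 190 in E1 and 117 to 147 in ELF.
Levels of markers of other tissue also differed between the groups, with few single genes past the threshold. The 8 choroid plexus markers, which Ttr leads, summed to 40.1 to 62.1 in controls, 31.8 to 53.8 in E1 and 2.69 to 34.7 in ELF, with ELF 3 the lowest, and none passed the test described below. The 7 endothelial markers summed to 7.49 to 14.1, 4.31 to 6.64 and 4.24 to 5.84. Cldn5, a tight junction protein of brain endothelium, fell by 0.93 in E1 (adjusted p = 0.0197) and by 0.74 in ELF (adjusted p = 0.0285) against controls. The VEGF receptor Kdr fell in both as well, and the VEGF receptor Flt1 and the transporter Abcb1a in ELF. With slide as a block these differences were smaller: -0.62 in E1 and -0.12 in ELF for Cldn5, -0.31 and -0.25 for Kdr (from -0.86 and -0.98), and in ELF -0.13 for Flt1 (from -1.14) and -0.47 for Abcb1a (from -1.20). The 9 thalamus and habenula markers summed to 4.92 to 5.77, 5.43 to 7.73 and 5.31 to 6.09, and 1 of them, Ramp3, rose in E1 by 0.86 (adjusted p = 0.0351), while Tcf7l2 was at 0.48 (adjusted p = 0.206). Of 7 meningeal markers, 1 passed, Igf2, which fell by 0.89 in ELF (adjusted p = 0.0480). No marker of striatum (6 measured, with Adora2a), cortex (4), astrocytes (6, with Gfap), oligodendrocytes (6, with Mbp) or microglia (6) passed in any comparison. The part of these shifts in the differences of the subfield markers was not tested.

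Within groups, the median spread of the subfield markers was below that of all genes. The median SD within groups was 0.18 for the 34 genes, beside 0.25 for all genes. All genes include probes well above background on as few as 5 arrays, and brightness was not matched in this comparison. Among the 34, the SD was lowest for the dentate marker Stx3, a syntaxin of vesicle fusion (0.10). It was highest for Npnt, the matrix protein nephronectin (0.48), and for Gpr161, a ciliary receptor that restrains Hedgehog signalling (0.43).
On each array, the median deviation of a marker set from its genes' means over all arrays describes the level of that set. Control 1 and E1 1 were low in dentate markers, at -0.19 and -0.23, and on E1 1 only 2 of 17 dentate genes were above their own medians. The other 13 arrays lay between -0.08 and 0.12 for the dentate set. ELF 2 was highest for CA1 markers, at 0.26, and with ELF 5 lowest for CA2/CA3 markers, at -0.16. For ELF 2 the CA2/CA3 reading depended on the summary. Its mean deviation was -0.01, and its summed CA2/CA3 level, 35.8, was the highest of the 15 arrays. The dentate median minus the CA1 median was 0.02 ± 0.12 (SD, n = 5) in controls, 0.03 ± 0.10 in E1 and -0.03 ± 0.09 in ELF, and the 3 groups overlapped.

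**Figure D1:**
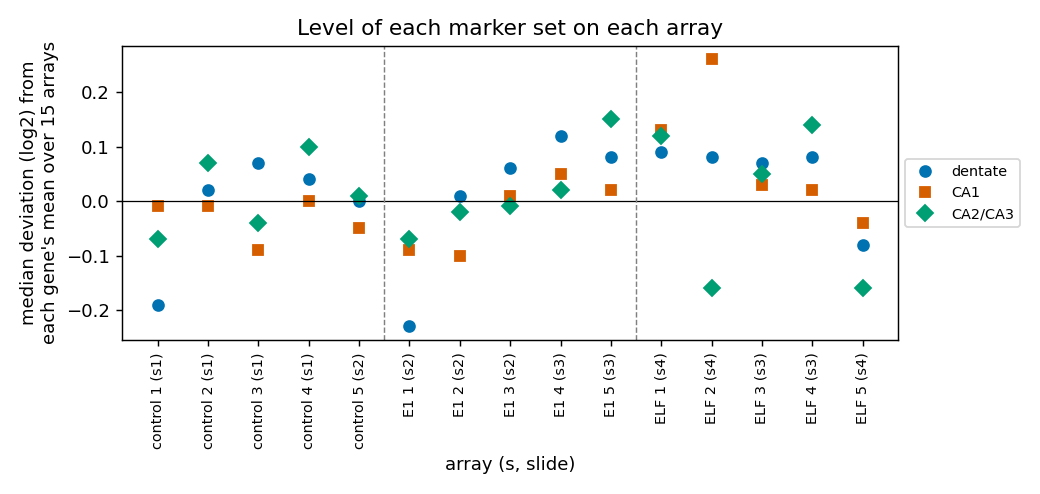
Median deviation (log2) of the 17 dentate, 12 CA1 and 5 CA2/CA3 markers from each gene's mean over 15 arrays, by array, with the slide as s1 to s4. Control 1 (-0.19) and E1 1 (-0.23) are low in dentate markers, ELF 2 is high in CA1 markers (0.26), and no set separates the 3 groups.

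**Figure D2:**
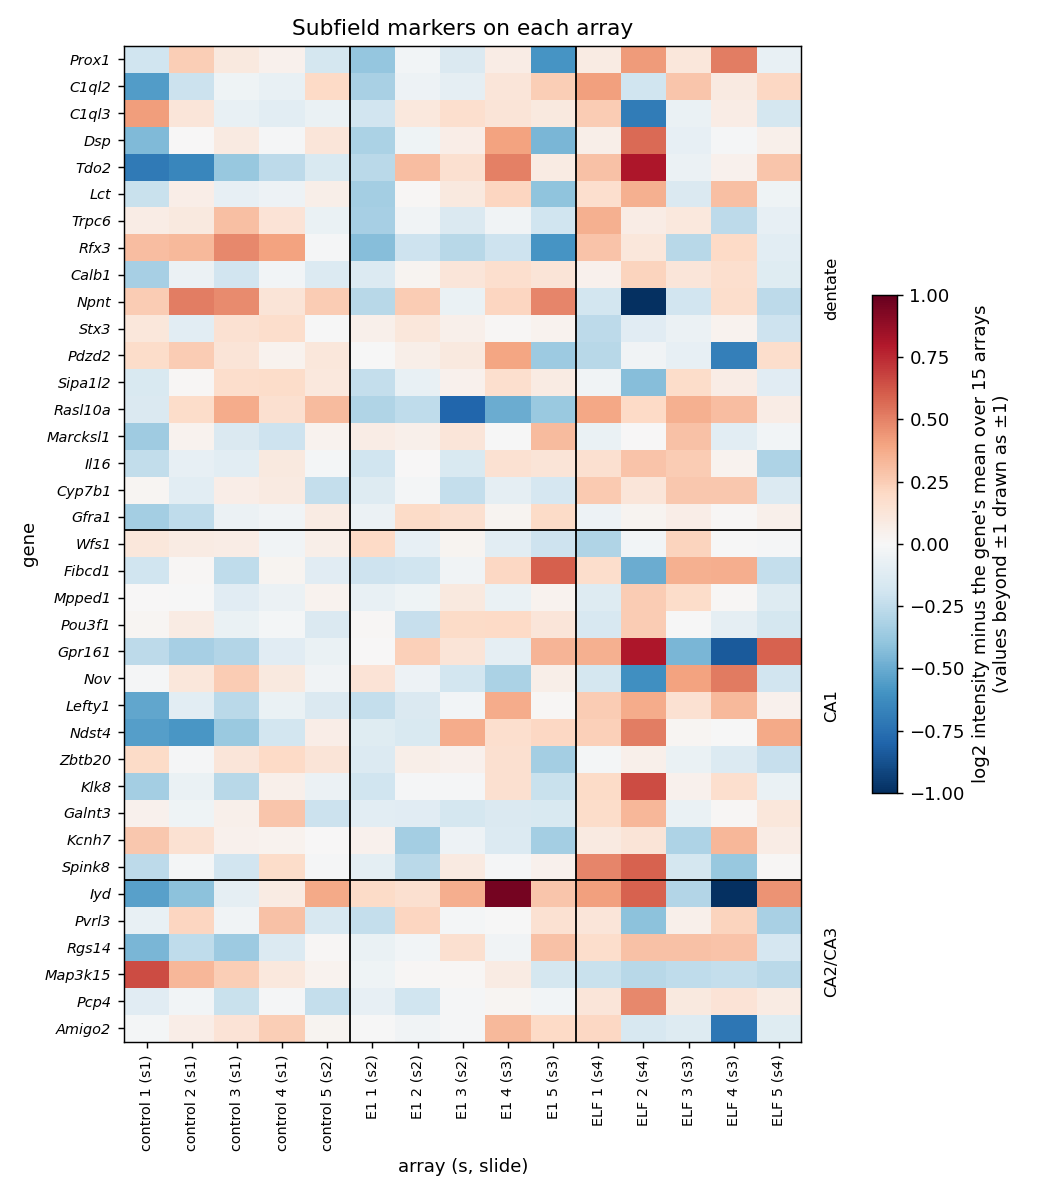
Log2 intensity of each of the 37 genes (rows) on each array (columns) minus the gene's mean over 15 arrays, with colour limited to ±1. Map3k15 runs from high in controls to low in ELF, Rasl10a is low on the 5 E1 arrays, and Gpr161, Nov and Iyd differ among the ELF arrays.

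At 1 h after the first extinction trial, no subfield marker differed from controls past the threshold, and the medians of the sets lay close to that of all genes. The median difference from controls was -0.02 for dentate, 0.05 for CA1 and 0.00 for CA2/CA3 markers, beside 0.04 for all genes. Of the 34, 17 were higher and 17 lower, while 58.8% of all genes were higher. None passed an adjusted p of 0.05 in limma, where 0.188% of all genes did, 0.134% (35 genes) higher and 0.0536% (14 genes) lower. At an unadjusted p under 0.05, 10 of 34 passed, 6 higher and 4 lower, beside 13.1% of all genes, 9.07% higher and 4.04% lower. Single differences ran from -0.64 to 0.59 with a median SE of 0.12, and the 95% interval lay within ±0.5 for 23 genes and within ±1 for all 34. No member was higher in E1 with no overlap of the groups, which held for 2.11% of all genes.

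Among dentate markers, Rfx3 and Tdo2 had the largest differences. Rfx3, a transcription factor of ciliary genes, read -0.39, -0.38, -0.22, -0.30 and -0.71 on controls 1 to 5, and -1.13, -0.91, -0.98, -0.91 and -1.29 on E1 1 to 5. Its ELF values were -0.42, -0.59, -0.98, -0.50 and -0.81. Every E1 array was below every control, which held in the lower direction for 1.62% of all genes, and the ELF arrays overlapped both groups. The difference from controls was -0.64 ± 0.13 (SE), 1.56-fold lower, and missed the threshold with an adjusted p of 0.0513 (0.00481 to 0.183 when single arrays were left out, the lowest without control 5). The other 2 Rfx3 probes gave -0.12 ± 0.13 and 0.11 ± 0.16. With slide as a block, where the difference rests on control 5 alone, it was -0.30.
Tdo2, tryptophan dioxygenase, which opens the kynurenine pathway, read -2.92, -2.86, -2.59, -2.47 and -2.36 on controls, -2.48, -1.90, -2.05, -1.71 and -2.13 on E1 and -1.92, -1.40, -2.27, -2.17 and -1.93 on ELF arrays. E1 1 fell among the controls and the other 4 E1 arrays were above them. The difference was 0.59 ± 0.18 (adjusted p = 0.162), and the dimmer Tdo2 probe gave 0.13 ± 0.18.
The remaining dentate markers lay between -0.25 and 0.24. Trpc6, a cation channel, was at -0.25 and Prox1, the homeodomain factor that sets granule cell identity, at -0.21. Marcksl1, an actin-regulating substrate of protein kinase C, was at 0.24, Gfra1, the GDNF co-receptor, at 0.22, and Calb1, the calcium buffer calbindin, at 0.21. C1ql2 (0.12) and C1ql3 (0.00), secreted synapse organisers of the C1q family, lay near control, as did Dsp (desmoplakin, -0.02), Lct (lactase, -0.04), Il16 (a cytokine precursor, 0.05), Stx3 (-0.01), the Rap regulator Sipa1l2 (-0.07), the sterol hydroxylase Cyp7b1 (-0.10), the PDZ protein Pdzd2 (-0.11) and Npnt (-0.20). For several of these genes the sign differed between probes. The dimmer probes of Npnt gave 0.11 ± 0.13 and 0.52 ± 0.17, and those of Pdzd2 0.21 ± 0.23, 0.43 ± 0.15 and 0.14 ± 0.22. Those of Prox1 gave 0.09 ± 0.13 and 0.04 ± 0.09, and that of Gfra1 -0.11 ± 0.22. The dimmer Marcksl1 probe kept its sign, at 0.32 ± 0.11. None of these passed the test.
Rasl10a, a small Ras-like GTPase, read 2.12, 2.45, 2.63, 2.42 and 2.58 on controls, 1.96, 2.01, 1.47, 1.77 and 1.89 on E1 and 2.65, 2.46, 2.62, 2.57 and 2.34 on ELF arrays. All 5 E1 arrays were below all 10 others. Against controls the difference was -0.62 ± 0.12, with an adjusted p of 0.0513 (0.0204 to 0.183 with single arrays left out, the lowest without control 5). It passed under quantile normalization (adjusted p = 0.0298), in the authors' values (0.0340) and with only probes well above background on all 15 arrays (0.0465), and not under the median shift (0.0583) or normexp background (0.105). With slide as a block it was -0.77 (adjusted p = 1). It was singled out after its values were seen.

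Among CA1 markers, Ndst4 and Gpr161 differed most from controls in E1. Ndst4, a sulfotransferase of heparan sulfate, read -3.79, -3.82, -3.61, -3.42 and -3.17 on controls, -3.36, -3.39, -2.87, -3.07 and -3.03 on E1 and -3.0, -2.73, -3.22, -3.24 and -2.86 on ELF arrays. E1 1 and 2 fell below control 5, and the difference of 0.42 ± 0.15 did not pass (adjusted p = 0.240). Gpr161 read -2.29, -2.36, -2.32, -2.14 and -2.09 on controls and -2.02, -1.79, -1.90, -2.12 and -1.69 on E1, a difference of 0.34 ± 0.25 (adjusted p = 0.610). Only E1 4 fell among the controls, while the dimmer Gpr161 probe gave a difference of -0.04 ± 0.23.
The other CA1 markers lay between -0.26 and 0.21, and none passed. Lefty1, a secreted Nodal antagonist, was at 0.21, the acetyl-group receptor Fibcd1 at 0.18, the serine protease Klk8 (neuropsin) at 0.09, the POU-domain factor Pou3f1 at 0.09 and the phosphoesterase Mpped1 at 0.01. Mpped1 was saturated on 2 E1 and 3 ELF arrays, so its values there are lower limits. Wfs1, wolframin of the endoplasmic reticulum, was at -0.09, the glycosyltransferase Galnt3 at -0.16, the matricellular protein Nov (now Ccn3) at -0.16, the CA1 identity factor Zbtb20 at -0.17 and the potassium channel Kcnh7 at -0.26. Spink8, a protease inhibitor, was at 0.01.
Of the CA2/CA3 markers, Rgs14, which limits plasticity in CA2, read 2.17, 2.37, 2.26, 2.49 and 2.64 on controls and 2.56, 2.60, 2.79, 2.59 and 2.92 on E1, a difference of 0.30 ± 0.12 (adjusted p = 0.279) with control 5 among the E1 values. Map3k15 was at -0.29 ± 0.10 (adjusted p = 0.235). The calmodulin regulator Pcp4 (0.06), the adhesion proteins Amigo2 (0.00) and Pvrl3 (now Nectin3, -0.03) lay near control. Iyd, iodotyrosine deiodinase, was at 0.50 ± 0.47 (adjusted p = 0.704), and its probe was not well above background on 1 ELF array.
Same-numbered control and E1 arrays deviated together, with correlations of 0.14 to 0.30. E1 2 and E1 3, however, each correlated best with a control of another number. In a fit of these 10 arrays alone with the replicate number as a block, added after the data were seen, 12.3% of all genes were called. Among the 34 members, 3 were called: Rfx3 (-0.64, adjusted p = 0.0130), Tdo2 (0.59, adjusted p = 0.0263) and Ndst4 (0.42, adjusted p = 0.0368). Rasl10a, outside the counts, had an adjusted p of 0.0376 there. With all 15 arrays and that block, none of the 34 was called.

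**Figure D3:**
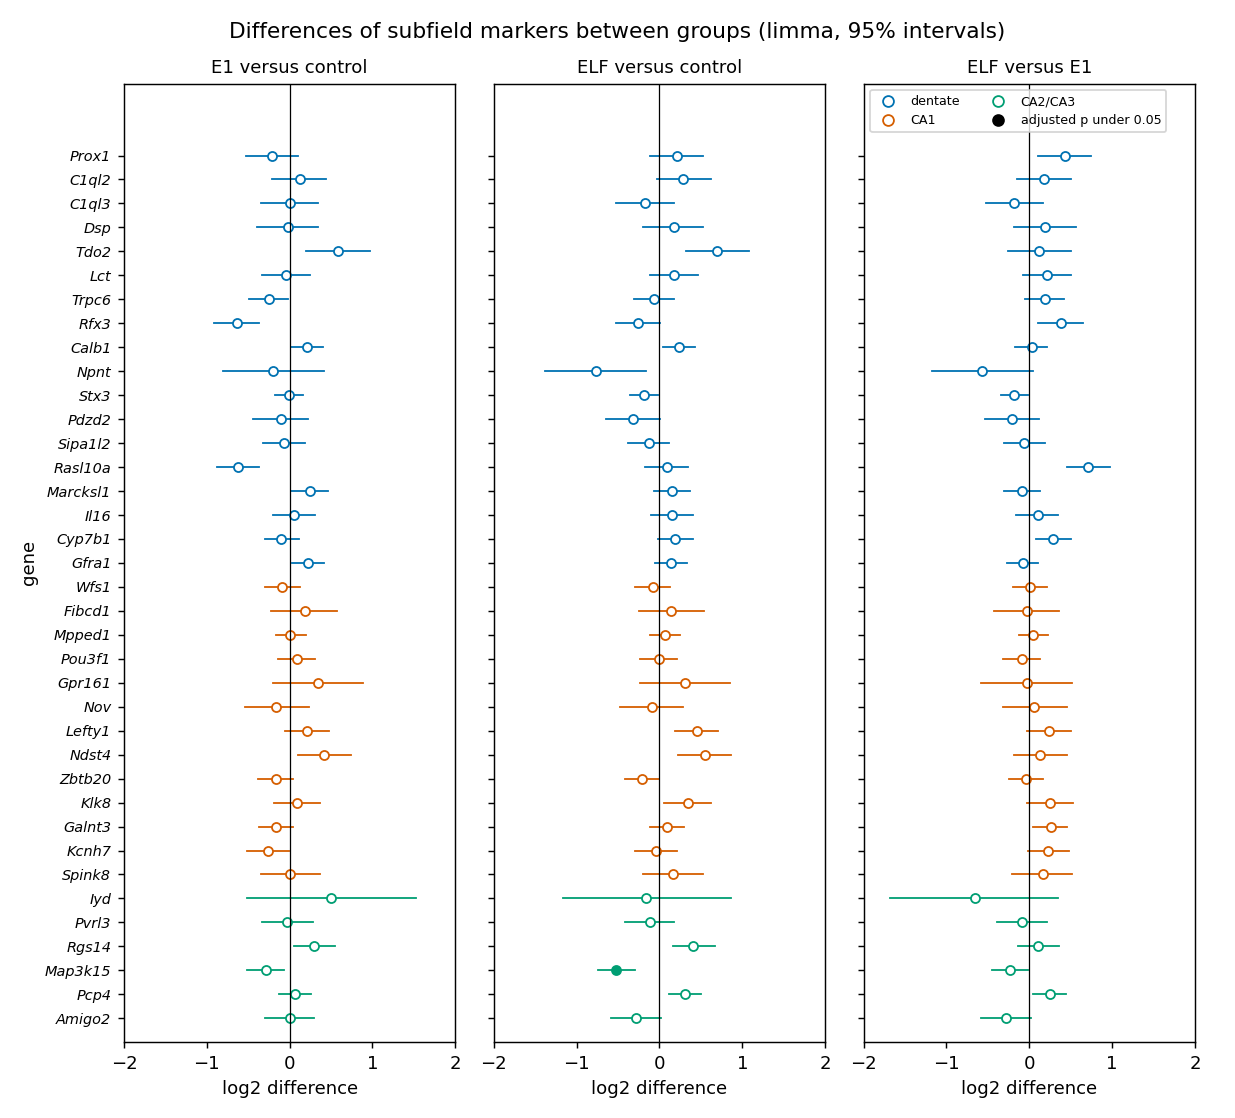
Log2 difference between groups for each gene with its 95% interval from limma (not adjusted), in the 3 comparisons, coloured by subfield. Map3k15 in ELF versus control is the 1 filled point (adjusted p = 0.0297), and most intervals include 0.

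After the low-freezing trial, 1 subfield marker, the CA2 marker Map3k15, differed from controls past the threshold. Set medians were 0.15 for dentate, 0.08 for CA1 and -0.12 for CA2/CA3 markers, beside 0.10 for all genes. For CA2/CA3 the direction depended on the summary. Of its 5 genes, 2 were higher and 3 lower, while the summed level was 24.7 to 29.0 in controls and 28.1 to 35.8 in ELF. Of the 34, 19 were higher and 15 lower, while 65.0% of all genes were higher. The 1 call, downward, compares with 2.15% of all genes called in either direction, 1.49% (389 genes) higher and 0.662% (173 genes) lower. Quantile normalization, with 1058 higher and 643 lower, and the authors' values, with 781 and 806, gave other splits. At an unadjusted p under 0.05, 11 of 34 passed, 7 higher and 4 lower, beside 23.0% of all genes, 15.7% higher and 7.30% lower. Intervals lay within ±0.5 for 17 genes and within ±1 for 32. E1 and ELF are set against the same 5 controls.

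Map3k15, a kinase at the head of a stress-activated MAP kinase cascade, read -2.66, -2.98, -3.07, -3.21 and -3.28 on controls 1 to 5, -3.36, -3.30, -3.30, -3.23 and -3.49 on E1 and -3.54, -3.59, -3.57, -3.55 and -3.58 on ELF arrays. Every ELF array was below every control and every E1 array, and the ELF values spanned far less than the control values (SD 0.02 and 0.24). Groups failed to overlap in this direction for 2.22% of all genes. The difference was -0.52 ± 0.10, 1.44-fold lower, with an adjusted p of 0.0297. The call was lost when control 1, 2 or 3 or ELF 1 or 5 was left out, with adjusted p from 0.0517 to 0.104, and held in the other 5 such fits. With slide as a block, which joins the control 5 and slide 3 contrasts, the difference was -0.24 (adjusted p = 0.567), and with the replicate block the adjusted p was 0.0513. Within the controls, control 5 on slide 2 was lowest and the 4 arrays of slide 1 were above it.
None of the other 4 CA2/CA3 markers passed. Rgs14 read 2.80, 2.92, 2.92, 2.91 and 2.46 on ELF arrays, of which only ELF 5 fell among the controls, a difference of 0.41 ± 0.12 (adjusted p = 0.0702). Pcp4 read 4.02, 4.10, 3.91, 4.12 and 3.89 on controls, 4.05, 3.93, 4.12, 4.15 and 4.10 on E1 and 4.25, 4.61, 4.23, 4.27 and 4.21 on ELF arrays. All ELF arrays were above all 10 others, as 2.53% of all genes were against controls, yet the difference of 0.31 ± 0.09 missed the threshold (adjusted p = 0.0768) and a dim second Pcp4 probe gave -0.25 ± 0.16. Amigo2 was at -0.28 and Pvrl3 at -0.12.

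Among dentate markers, Npnt and Tdo2 differed most. Npnt read -3.65, -3.39, -3.43, -3.78 and -3.65 on controls, -4.18, -3.65, -3.97, -3.69 and -3.42 on E1 and -4.09, -5.68, -4.10, -3.73 and -4.17 on ELF arrays. ELF 2 was far below the rest. The difference of -0.77 ± 0.29 did not pass (adjusted p = 0.135) and was -0.44 without ELF 2, while the other 2 Npnt probes gave -0.02 ± 0.13 and 0.23 ± 0.17. Tdo2 was above every control on all 5 ELF arrays, at 0.70 ± 0.18, and missed the threshold (adjusted p = 0.0532, and 0.0202 to 0.148 with single arrays left out, the lowest without ELF 4). Its second probe gave 0.30 ± 0.18, and with slide as a block the difference was -0.08.
The rest of the dentate set lay between -0.32 (Pdzd2) and 0.29 (C1ql2). Calb1 was at 0.24, Prox1 at 0.21, Cyp7b1 at 0.19, Dsp and Lct at 0.17, Marcksl1 and Il16 at 0.15 and Gfra1 at 0.14. Rfx3 was at -0.26, Stx3 at -0.19, C1ql3 at -0.18, Sipa1l2 at -0.13 and Trpc6 at -0.07. The dimmer probes of Pdzd2 gave -0.23 ± 0.23, 0.50 ± 0.15 and 0.17 ± 0.22. Those of Stx3 gave 0.10 ± 0.13, 0.22 ± 0.08, 0.22 ± 0.19 and -0.13 ± 0.13, so the sign differed between probes of both genes. Rasl10a, at 0.09, lay at control level after the late trial. None of these passed the test.
Among CA1 markers, Lefty1 read 0.13, 0.54, 0.38, 0.58 and 0.50 on controls, 0.41, 0.50, 0.62, 1.02 and 0.66 on E1 and 0.90, 1.02, 0.80, 0.97 and 0.69 on ELF arrays. The ELF arrays lay above all controls and overlapped E1. Its difference was 0.45 ± 0.12 (adjusted p = 0.0630), and 0.06 with slide as a block. Ndst4 was at 0.55 ± 0.15 with the same adjusted p of 0.0630, its ELF 3 and 4 arrays overlapped control 5, and with slide as a block it was at -0.21. Klk8 was at 0.34, Gpr161 at 0.31, Fibcd1 at 0.14, Galnt3 at 0.09, Mpped1 at 0.07, Pou3f1 at -0.01, Kcnh7 at -0.04, Wfs1 at -0.08, Nov at -0.09 and Zbtb20 at -0.21. Spink8 was at 0.16 and Iyd at -0.16, and neither passed. Iyd read -7.80 on ELF 4, the array on which its probe was not well above background, and -4.68 to -5.56 on the other ELF arrays. Without ELF 4 its difference was 0.41, and with slide as a block -2.18 (adjusted p = 0.133).
The calls depended on single arrays. Leaving out ELF 4 raised the members called to 7 (Map3k15 and Npnt lower, Tdo2, Lefty1, Ndst4, Rgs14 and Pcp4 higher) and the genes called to 5164, and leaving out control 5 raised them to 5 and 2109. Leaving out control 2 or 3 lowered both counts to 0.

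**Figure D4:**
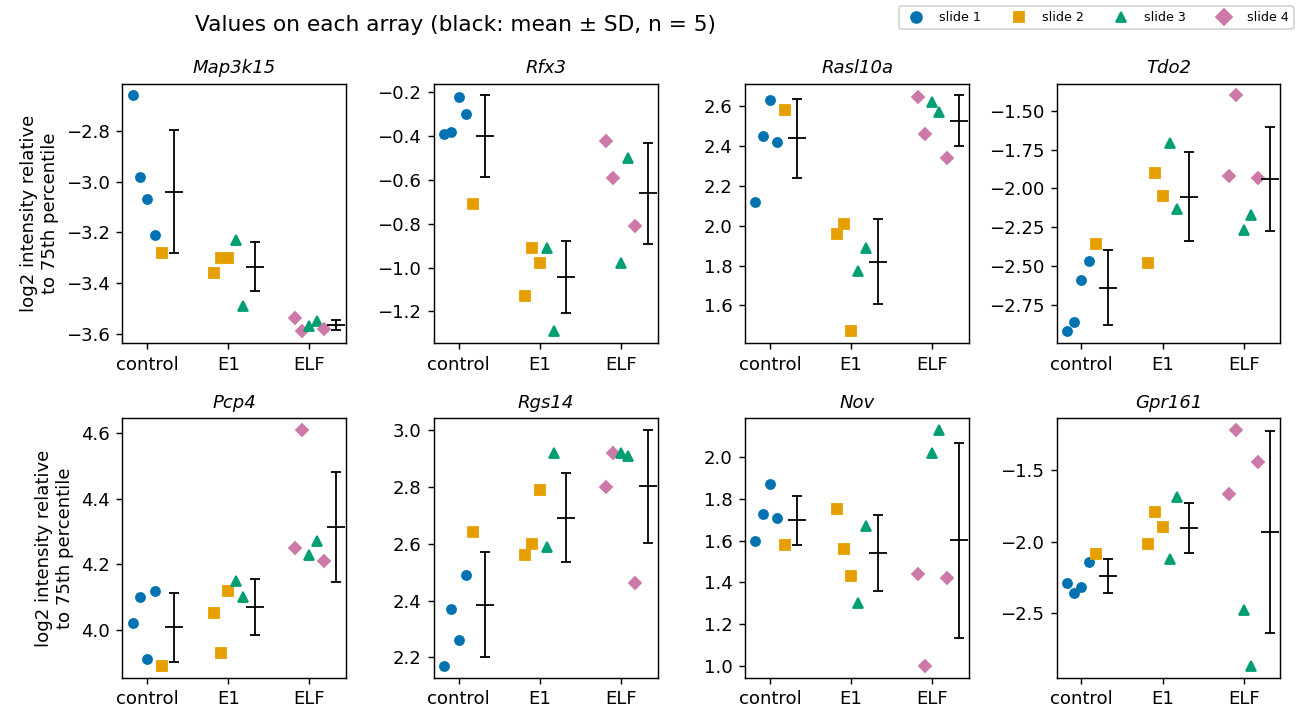
Log2 intensity relative to the array's 75th percentile for 8 genes on each array, by group, with the slide as colour and shape and the mean ± SD (n = 5) in black. The vertical axes do not start at 0. Map3k15 is lowest in ELF, Rasl10a in E1, and the ELF values of Nov and Gpr161 divide by slide.

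Between the late and the first trial, no subfield marker passed an adjusted p of 0.05, beside 0.00766% of all genes (2 genes, both higher in ELF, none lower). At an unadjusted p under 0.05, 7 of 34 passed, 5 higher and 2 lower, beside 9.64% of all genes, 5.64% higher and 4.00% lower. Of the 34, 20 were higher, as were 60.3% of all genes. Set medians were 0.10, 0.06 and -0.09 for dentate, CA1 and CA2/CA3 markers, beside 0.05 for all genes. The summed CA2/CA3 level again went the other way, at 26.7 to 30.2 in E1 and 28.1 to 35.8 in ELF. Galnt3 and Pcp4 were higher and Map3k15 lower with no overlap of the groups, which held for 1.10% of all genes in the higher and 0.953% in the lower direction. Intervals lay within ±0.5 for 20 genes and within ±1 for 33.

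In the dentate set, Npnt was at -0.57 ± 0.29 (adjusted p = 0.535). Prox1 read 1.31, 1.75, 1.60, 1.55 and 1.33 on controls, 1.12, 1.48, 1.36, 1.58 and 0.92 on E1 and 1.59, 1.93, 1.62, 2.02 and 1.43 on ELF arrays, a difference of 0.43 ± 0.15 between the trials (adjusted p = 0.413). ELF 5 fell among the E1 values, and the other 2 Prox1 probes gave 0.11 ± 0.13 and 0.08 ± 0.09. Rfx3 was at 0.38 and Cyp7b1 at 0.29, neither past the threshold. Rasl10a was at 0.71 ± 0.12, 1.64-fold higher in ELF, with an adjusted p of 0.122. Its difference was 0.76 (adjusted p = 0.0239) with slide as a block, where ELF versus E1 rests on slide 3. That fit took in the arrays of all slides and pooled their spread, and it called 19.6% of all genes in this comparison.
In CA1, Galnt3 read -0.90, -0.99, -0.89, -0.67 and -1.16 on controls, -1.05, -1.06, -1.12, -1.09 and -1.10 on E1 and -0.76, -0.61, -1.01, -0.93 and -0.83 on ELF arrays, a difference of 0.26 ± 0.10 (adjusted p = 0.430). Its E1 values lay within 0.1 of each other and inside the control range, and the dimmer Galnt3 probe gave 0.11 ± 0.11 between the trials. Klk8 read -0.51, -0.24, -0.45, -0.12 and -0.23 on controls, -0.37, -0.18, -0.18, -0.01 and -0.39 on E1 and 0.02, 0.48, -0.13, 0.00 and -0.24 on ELF arrays, a difference of 0.25 ± 0.13 (adjusted p = 0.552) with overlap of all groups.
In CA2/CA3, Pcp4 was at 0.25 ± 0.09 (adjusted p = 0.425) and Map3k15 at -0.23 ± 0.10 (adjusted p = 0.503). The dim second Pcp4 probe went the other way, at -0.45 ± 0.16. Amigo2 read -0.94, -0.85, -0.78, -0.67 and -0.89 on controls, -0.92, -0.95, -0.93, -0.59 and -0.72 on E1 and -0.71, -1.08, -1.05, -1.64 and -1.04 on ELF arrays, a difference of -0.28 ± 0.14 (adjusted p = 0.533). ELF 4 was the lowest of all arrays and ELF 1 lay within the E1 range.

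Several dentate and CA1 markers divided the ELF arrays by slide. This was described after the values were seen, with no test. Gpr161 read -1.67, -1.22 and -1.44 on ELF 1, 2 and 5 of slide 4 and -2.48 and -2.87 on ELF 3 and 4 of slide 3. Nov read 1.44, 1.00 and 1.42 on slide 4 and 2.02 and 2.13 on slide 3, the opposite order. Fibcd1, Wfs1 and the dentate markers Stx3, Sipa1l2 and Cyp7b1 were also lower on slide 4. Ndst4, Galnt3, Tdo2 and Dsp were higher, as were Spink8 and Iyd outside the counts. In all, 11 of the 34 (32.4%) separated by slide, 5 higher and 6 lower on slide 4. This held for 56.8% of all genes, of which 12221 were higher and 2609 lower. The 2 shares are not matched in brightness, since all genes include dim probes. The share of spots well above background also differed by slide. It was 95.8% to 97.2% on the ELF arrays of slide 4, 88.6% on ELF 3 and 83.5% on ELF 4. With slide as a block, where ELF versus E1 rests on slide 3, 3 members were called, Gpr161 (-0.77, adjusted p = 0.0201), Amigo2 (-0.69, adjusted p = 0.0254) and Nov (0.59, adjusted p = 0.0379), beside 19.6% of all genes. Without the block these 3 differences were -0.03, -0.28 and 0.06. Iyd, outside the counts, was also called there (-2.03, adjusted p = 0.0229), beside -0.66 without the block and -0.10 without both the block and ELF 4. Slide and single samples cannot be told apart within the ELF group.

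Further subfield markers outside the 37 were read in the same way. None of 5 measured other dentate, 3 other CA1 and 11 other CA2/CA3 markers passed the threshold in any comparison. Their medians in E1 versus control were 0.00, 0.13 and 0.07, in the order given, in ELF versus control 0.34, 0.00 and 0.23, and in ELF versus E1 0.11, -0.25 and 0.08, beside 0.04, 0.10 and 0.05 for all genes. In ELF versus control the medians of the other dentate and other CA2/CA3 markers were thus above those of the members (0.15 and -0.12), a difference that was not tested. None of 6 markers of the subiculum and ventral pole passed, with medians of -0.10 and 0.01. Of 6 markers of immature dentate neurons, 1 passed: Eomes, a factor of intermediate progenitors, fell by 0.84 ± 0.12 in E1 (adjusted p = 0.0131) and by 0.59 ± 0.12 in ELF (adjusted p = 0.0323), while Dcx, doublecortin of migrating young neurons, was at 0.19 and -0.08.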

How the data were processed

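The authors deposited Agilent Feature Extraction scanner output (version 9.5.3.1 per the file headers), with processed intensity per spot on a linear scale, and a table of log2 values whose scale and centring are not stated. Array medians of that table were 8.77 to 9.00, and it correlated with log2 mean signal at 0.996 or more. Per the submitters' processing notes limma was used. The deposited flags for spots well above background, saturated or outlying were read as given. The notes give no genome build, and the positions in the scanner files are on mm7.
Of 45018 spots, 1639 control spots and outlier spots were left out, spots of 1 probe were averaged, and log2 processed intensity was set relative to the array's 75th percentile. Probes well above background on at least 5 arrays were kept (38458 of 41174), and the brightest probe stood for each gene (26117 genes). limma 3.58.1 (R 4.3.3) was fitted to all 15 arrays with no covariate, with Benjamini-Hochberg adjustment over all genes and a threshold of 0.05. A small number of arrays limits the precision.
All 37 members were to be named, with values on every array for called members and the 2 members of each set with the largest difference in each comparison. Of other lists, called genes and a few standard markers were to be named. The members and lists were chosen with earlier results of these data known, and the division of the 37 into 3 sets follows their order in the list. No set test was run.
Same-numbered control and E1 arrays had deviations correlated at 0.17, 0.19, 0.14, 0.20 and 0.30, a pairing read from the data and not from the labels. That pairing was incomplete, since E1 2 and E1 3 each correlated best with a control of another number. For ELF the correlations ran from -0.43 to 0.31, and no pairing was taken. Alternatives were other scalings, background correction, the authors' values, other filters and probe rules, slide and replicate blocks, the compared groups alone, and leaving out each array.
The lists used were markers of other dentate, CA1 and CA2/CA3 cells, subiculum and ventral pole, general and immature neurons, thalamus and habenula, striatum, cortex, choroid plexus, meninges, endothelium, astrocytes, oligodendrocytes and microglia.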

Additional observations from a re-analysis of the deposited data

Results flagged for a closer look

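In 102 groups of 5 arrays (34 genes in 3 groups), 7 held an array farther from the rest than Dixon's test allows at the 95% level. Chance flags about 1 in 20 groups. ELF 2 held 3 of the 7: Npnt at -5.68, with the nearest ELF array at -4.17, Pcp4 at 4.61, with the nearest at 4.27, and Dsp at 0.73, with the nearest at 0.22. Dsp was also far from the rest on control 1, at -0.28. C1ql3 stood at 1.81 on E1 1, where the nearest value was 2.10. Marcksl1 was at 1.68 on ELF 3 and Rgs14 at 2.46 on ELF 5.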

How the results depend on the processing

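Map3k15 in ELF versus control kept its sign under every alternative run. Of members called only under an alternative, Tdo2 and Ndst4 in ELF versus control (-0.08 and -0.21) and Ndst4 in E1 versus control (-0.03) turned negative with slide as a fixed block. Gpr161 and Nov, called in ELF versus E1 with that block, lay near 0 without it, with either sign under other settings. In E1 versus control, where 49 genes and no member were called, genes called were 454 (377 higher, 77 lower) under quantile normalization, 300 (260 and 40) with a median shift, 240 (186 and 54) in the authors' values, 4 with slide as a fixed block, 0 with slide as a random block, 9 with the replicate block and 3201 in the 2 groups with the replicate block. Members called were 1, Rfx3, under quantile normalization, the median shift, normexp background, the authors' values and the filter on all 15 arrays, and 3 in the 2 groups with the replicate block.
In ELF versus control, where 562 genes (389 and 173) and 1 member were called, genes called were 1701 (1058 and 643) under quantile normalization, 1203 (718 and 485) with the median shift, 1587 (781 and 806) in the authors' values, 85 with the fixed slide block, 217 with the replicate block and 0 with the random slide block, with the 2 groups alone and with those and the replicate block. Members called were 4, 2 and 3 under those 3 scalings, 2 with the filter on all 15 arrays, and 0 under normexp, each slide or replicate block and each fit of the 2 groups. The CA1 median was -0.02 with the median shift and -0.01 in the authors' values, and with the slide block the dentate median was -0.06, the CA2/CA3 median 0.17 and the median of all genes -0.22.
In ELF versus E1, with 2 genes called, the counts were 5 (quantile), 11 (authors' values), 4 (filter on all 15 arrays), 5120 (fixed slide block, 695 and 4425, with 3 members and a CA2/CA3 median of 0.06) and 0 under the median shift, normexp, the random slide block, the replicate block and both fits of the 2 groups.
With single arrays left out, genes called ran from 8 to 1119 in E1 versus control (most without control 5), 0 to 5164 in ELF versus control (most without ELF 4) and 0 to 11 in ELF versus E1 (most without ELF 3), and members called from 0 to 1, 0 to 7 and 0 to 0. The set medians (dentate, CA1, CA2/CA3) ran from -0.11 to 0.03, 0.02 to 0.06 and -0.03 to 0.04 in E1 versus control, 0.08 to 0.17, 0.05 to 0.11 and -0.17 to -0.03 in ELF versus control, and 0.01 to 0.14, 0.03 to 0.11 and -0.16 to -0.01 in ELF versus E1. The cause of these shifts was not tested. The replicate block changed no other member's call.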
